A study of Mus musculus with 16 samples.

Results

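The 7 genes described here, C3, C4b, C1ra, Serping1, Cd55, Cd59a and Cd93, encode complement components, complement regulators and a receptor tied to complement by its history. They were taken as a named set, by symbol, out of 37003 genes in a table of RNA sequencing counts from brain endothelial cells (bECs), and all 7 were found and passed the filter on low counts. The cells came from adult mice of both sexes that carried floxed Yap and Taz alleles (Yap fl/fl Taz fl/fl; Taz is the gene Wwtr1) and had been given tamoxifen. In YT-iKO mice the Pdgfb-iCreER-eGFP transgene, active in endothelium, then deleted both genes, whereas the CTRL littermates lacked this transgene. Each genotype underwent either sham surgery or 30 minutes of middle cerebral artery occlusion (MCAo), a model of ischemic stroke, and DAPI-, CD45-, CD31+ cells were sorted for RNA 72 hours later. The design gave 4 groups of 4 libraries, sham-operated and MCAo-operated CTRL and YT-iKO mice, with several mice pooled in each library. Because the sort and the RNA input set the total, fewer cells of a type and less RNA per cell cannot be told apart.

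Complement is a chain of serum and cell surface proteins that marks targets for clearance. In the classical pathway C1q recognizes a surface, the proteases C1r and C1s are activated, and C1s cleaves C4, after which a convertase cleaves C3, the point where all pathways meet. C1 inhibitor, the product of Serping1, inactivates C1r and C1s. CD55 speeds the decay of convertases on the host cell membrane, and CD59 blocks assembly of the membrane attack complex. CD93 is an endothelial C-type lectin once described as a C1q receptor and now known mainly for its part in endothelial adhesion. Mice have duplicated copies of several of these genes, among them C4b and C4a, C1ra and C1rb, Cd55 and Cd55b, and Cd59a and Cd59b.

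The total count per library ranged from 11418262 to 23074547, with a median of 16441012. Yap1 averaged 112 CPM (counts scaled to library size with TMM factors) in CTRL sham and 49.3 CPM in YT-iKO sham, and Wwtr1 averaged 265 and 72.1 CPM. Both were lower in every YT-iKO library than in every CTRL library of the same surgery. The 8 endothelial markers checked summed to between 7976 and 16240 CPM in each library, and the 8 microglia and macrophage markers to between 4.67 and 40.7 CPM. Low counts can arise from reads spread evenly over the genome, and this was measured on 1467 autosomal olfactory, vomeronasal and taste receptor genes, which bECs should not express. These gave 0.0413 CPM per kb of exon in YT-iKO MCAo 4 and up to 0.421 in YT-iKO sham 3, with YT-iKO MCAo 2 close to the latter at 0.412, while the other libraries lay between 0.141 and 0.360. YT-iKO MCAo 4 stood apart at the low end, and the high end was graded. Results that rest on YT-iKO sham 3 and YT-iKO MCAo 2, the highest, are given with and without them.

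On GRCm38 with GENCODE M21, C3 lies on chr17:57203970-57228136 and C4b on chr17:34728380-34743882, both on the minus strand. C1ra lies on chr6:124512405-124523443 (plus strand) and Serping1 on chr2:84765387-84775444 (minus strand). Cd55 lies on chr1:130439027-130462744 (minus strand), Cd59a on chr2:104095801-104115354 (plus strand) and Cd93 on chr2:148436640-148443563 (minus strand). The deposited values are counts per gene, and levels per length use the exon lengths of this annotation. RefSeq promoter sequences (GRCm38.p6) were given for 4 of them, C3, C1ra, Cd55 and Cd59a, and the 250 bases before the start were searched on both strands for the letters GGAATG (TEAD, the DNA-binding partner of YAP and TAZ), TTCNNNGAA (STAT) and TTGCNNAA (C/EBP) and for loose forms of the NF-kB and ISRE motifs. The promoter of C3 is shown because C3 is the shared component of all pathways and it held both NF-kB and C/EBP matches. It is chr17:57228137-57228386, printed 5′ to 3′ on the minus strand with the matches in capitals:
C3 promoter: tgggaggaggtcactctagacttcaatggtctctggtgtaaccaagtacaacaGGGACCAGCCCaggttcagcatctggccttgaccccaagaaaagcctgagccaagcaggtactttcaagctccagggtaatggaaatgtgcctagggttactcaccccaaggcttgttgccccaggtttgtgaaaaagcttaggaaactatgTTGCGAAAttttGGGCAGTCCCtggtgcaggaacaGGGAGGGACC
It held 5 NF-kB matches, some overlapping, which begin between 197 and 10 bases before the start, and 1 C/EBP match that begins 45 bases before the start. Of the 4 promoters, only that of C1ra held the TEAD letters, read on the opposite strand, and the 30 bases around them (chr6:124512535-124512564, plus strand, match in capitals) are shown because C1ra was the called gene with a promoter to inspect:
C1ra site: catcgcctcagcCATTCCccaaatggacca
This match begins 74 bases before the RefSeq start but inside the first exon of C1ra in GENCODE M21, which starts further upstream. C1ra was called after MCAo in CTRL and not between genotypes, and use of this match was not tested. The TEAD letters occurred in 12.6% of 32851 promoters of the same length, the NF-kB motif in 45.8%, the ISRE motif in 2.98%, the STAT letters in 7.02% and the C/EBP letters in 9.56%. Cd55 held 5 NF-kB matches, Cd59a held 1 NF-kB and 1 ISRE match, and no STAT match was found in these 4 windows.

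Per length, the 7 genes ranged widely. The median over the 16 libraries was 92.5 CPM per kb for Cd93, 35.8 for Cd59a, 2.78 for C4b, 2.13 for C1ra, 1.25 for Serping1, 0.851 for C3 and 0.544 for Cd55. Thus the membrane proteins Cd93 and Cd59a stood at the top, the fluid phase components and C1 inhibitor far lower, and the membrane regulator Cd55 at the bottom. Cd93 exceeded Cd59a in 16 of 16 libraries although their ranges overlapped, and Cd59a and C4b did not overlap. The ranges of every other pair of neighbors in this order overlapped, with C4b above C1ra in 13, C1ra above Serping1 in 14, Serping1 above C3 in 12 and C3 above Cd55 in 13 of the 16 libraries. The even background would account for a median of 0.211% of the counts of Cd93 and 0.569% of those of Cd59a. For C4b this share was 7.66%, for C1ra 13.97%, for Serping1 19.99%, for C3 22.8% and for Cd55 43.9%, reaching 90.1% for Cd55 in YT-iKO sham 3. Cd55 was therefore measured close to the limit of these libraries.

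**Figure D1:**
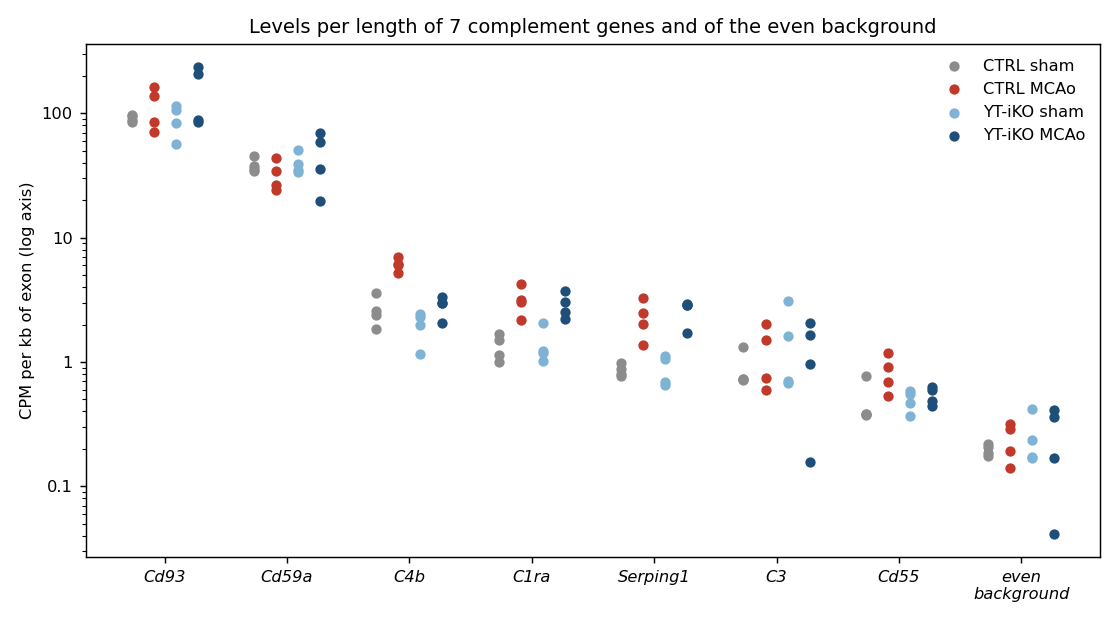
Level of each gene per length (CPM per kb of exon, log axis) in 16 libraries, 1 point each, colored by group, beside the even background measured on receptor genes. Cd93 and Cd59a lie well above the other genes, and Cd55 lies nearest to the background, whose lowest point is YT-iKO MCAo 4 at 0.0413 CPM per kb.

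C1ra encodes C1r, the protease that activates C1s. In CTRL sham its counts were 47, 60, 64 and 69, or 3.00, 3.42, 4.97 and 4.48 CPM in replicates 1 to 4. In CTRL MCAo they were 184, 136, 96 and 145, or 12.7, 9.37, 6.51 and 9.13 CPM. Every CTRL MCAo library lay above every CTRL sham library. In YT-iKO sham the counts were 76, 63, 95 and 46, or 3.66, 3.54, 6.16 and 3.03 CPM, and in YT-iKO MCAo they were 220, 106, 117 and 146, or 11.03, 6.64, 7.58 and 9.10 CPM. The YT-iKO groups did not overlap either, with YT-iKO sham 3 just below YT-iKO MCAo 2, but they overlapped when scaled by TMM factors from genes of at least 10 CPM on average (exact two-sided permutation p = 0.0571). The group means were 3.97 ± 0.916 (SD, n = 4) and 9.43 ± 2.54 CPM in CTRL sham and MCAo, and 4.10 ± 1.40 and 8.59 ± 1.92 CPM in YT-iKO sham and MCAo. C1ra rose after MCAo in CTRL bECs (log2 fold change 1.25, SE 0.279, edgeR adjusted p = 0.0939). In YT-iKO bECs the log2 fold change was 1.07 (SE 0.276) and did not pass the threshold (edgeR adjusted p = 0.201). Without YT-iKO sham 3 and YT-iKO MCAo 2, the libraries of highest background, edgeR called C1ra in both genotypes, at 1.31 (adjusted p = 0.00365) in CTRL and 1.48 (adjusted p = 0.00441) in YT-iKO. The CTRL call was lost on leaving out CTRL sham 1, 2, 3 or 4 (edgeR adjusted p = 0.331, 0.478, 0.134 and 0.119), CTRL MCAo 1, 2 or 4 (0.279, 0.194 and 0.297) or YT-iKO sham 4 (0.126), and the YT-iKO difference passed without YT-iKO sham 3 (0.0436) or YT-iKO MCAo 2 (0.0751). With the even background taken off, the MCAo mean was 2.58 times the sham mean in CTRL and 2.34 times in YT-iKO, against 2.38 and 2.10 before. Between genotypes, YT-iKO over CTRL, the log2 fold change was 0.047 (SE 0.280) after sham surgery and −0.13 (SE 0.270) after MCAo. Neither passed the threshold.

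C4b encodes complement component 4, the substrate of C1s. Its counts were 213, 184, 188 and 317 in CTRL sham, or 13.6, 10.48, 14.6 and 20.6 CPM, and 432, 501, 516 and 632 in CTRL MCAo, or 29.8, 34.5, 35.0 and 39.8 CPM. In YT-iKO sham the counts were 286, 118, 202 and 170, or 13.8, 6.63, 13.1 and 11.2 CPM, and in YT-iKO MCAo 232, 302, 264 and 275, or 11.6, 18.9, 17.1 and 17.1 CPM. The 4 CTRL MCAo libraries were the highest of all 16, whereas YT-iKO MCAo overlapped with YT-iKO sham. C4b rose after MCAo in CTRL bECs, from 14.8 ± 4.23 to 34.8 ± 4.07 CPM (SD, n = 4; log2 fold change 1.23, SE 0.237, edgeR adjusted p = 0.0331). In YT-iKO bECs the means were 11.2 ± 3.22 and 16.2 ± 3.16 CPM (log2 fold change 0.53, SE 0.237, edgeR adjusted p = 1.00), and an exact permutation test (two-sided, on log2(CPM + 1)) gave p = 0.0857. The CTRL call was lost without CTRL sham 1, 2 or 3 (edgeR adjusted p = 0.137, 0.235 and 0.111) or CTRL MCAo 4 (0.157).

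After MCAo, C4b was the member with the clearest separation of the genotypes. All 4 YT-iKO MCAo libraries lay below all 4 CTRL MCAo libraries, at a mean 0.466 times that of CTRL (log2 fold change −1.10, SE 0.236). This did not pass the threshold in the edgeR fit (adjusted p = 0.151), while the exact permutation test gave p = 0.0286, the smallest that 4 against 4 allows, as 1 of 28 such single tests. The separation was lost with factors from genes of at least 10 CPM on average, where YT-iKO MCAo 2 was at 25.53 and CTRL MCAo 1 at 23.15 CPM (exact permutation p = 0.0571, edgeR log2 fold change −1.06, adjusted p = 0.294). Without YT-iKO sham 3 and YT-iKO MCAo 2 the log2 fold change was −1.23 (SE 0.276, edgeR adjusted p = 0.124). DESeq2 called it (adjusted p = 0.00271). With all libraries kept, edgeR called C4b with a block for replicate number (adjusted p = 0.0652) or a covariate for Xist (0.0417). RLE factors (0.0791) and no filter on low counts (0.0527) also gave the call. The CPM filter (0.124) and a fit of only the groups compared (0.338) did not. In the edgeR fit as reported the call also turned on single libraries. It appeared without CTRL sham 4 (adjusted p = 0.0379), CTRL MCAo 1 (0.0571), YT-iKO sham 1, 2 or 3 (0.0713, 0.0224 and 0.0805) or YT-iKO MCAo 4 (0.0624). It was furthest away without CTRL MCAo 4 (0.812). After sham surgery the genotypes overlapped (log2 fold change −0.41, SE 0.238, edgeR adjusted p = 0.990). The difference of the MCAo responses itself, YT-iKO minus CTRL, was −0.70 (SE 0.334) with an unadjusted p of 0.0486 and an edgeR adjusted p of 1.00, so the responses were not shown to differ.

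C3 encodes the central component. Its counts were 59, 66, 47 and 105 in CTRL sham, or 3.77, 3.76, 3.65 and 6.82 CPM, and 44, 113, 152 and 61 in CTRL MCAo, or 3.04, 7.78, 10.3 and 3.84 CPM. In YT-iKO sham they were 72, 64, 247 and 126, or 3.47, 3.60, 16 and 8.30 CPM, and in YT-iKO MCAo 98, 169, 131 and 13, or 4.92, 10.6, 8.48 and 0.810 CPM. The highest library, YT-iKO sham 3, was 19.8 times the lowest, YT-iKO MCAo 4, and these are the libraries with the highest and the lowest even background. The groups overlapped in all 4 comparisons, and the fitted log2 fold changes ranged from −0.33 to 0.79 with SEs of 0.546 to 0.555 (edgeR adjusted p from 0.990 to 1.00). The value of 0.79, YT-iKO over CTRL after sham surgery, rested on YT-iKO sham 3 and was 0.19 (SE 0.571) without it. Without the 2 libraries of highest background the log2 fold changes of C3 were 0.20 between genotypes after sham, −0.42 between genotypes after MCAo, 0.64 after MCAo in CTRL and 0.013 after MCAo in YT-iKO. Limma-voom with sample quality weights called C3 after MCAo in CTRL (0.81, adjusted p = 0.0656), a setting that called 7538 of 31085 genes there. A change of the size seen for C1ra or C4b would lie near 2 SEs for C3. After the even background was taken off, the mean was 3.49 CPM (sham) and 5.03 CPM (MCAo) in CTRL and 6.56 CPM (sham) and 4.94 CPM (MCAo) in YT-iKO.

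Serping1 encodes C1 inhibitor, which is also the inhibitor of plasma kallikrein. Its counts were 29, 36, 23 and 35 in CTRL sham, or 1.85, 2.05, 1.79 and 2.27 CPM, and 111, 83, 69 and 51 in CTRL MCAo, or 7.66, 5.72, 4.68 and 3.21 CPM. In YT-iKO sham they were 33, 27, 40 and 37, or 1.59, 1.52, 2.59 and 2.44 CPM, and in YT-iKO MCAo 136, 107, 61 and 108, or 6.82, 6.70, 3.95 and 6.73 CPM. In either genotype every MCAo library was above every sham library. Serping1 rose after MCAo in YT-iKO bECs, from 2.03 ± 0.559 to 6.05 ± 1.40 CPM (SD, n = 4; log2 fold change 1.58, SE 0.319, edgeR adjusted p = 0.0339). In CTRL bECs the means were 1.99 ± 0.220 and 5.32 ± 1.87 CPM, and the log2 fold change of 1.41 (SE 0.321) just missed the threshold (edgeR adjusted p = 0.103). DESeq2 called it in both genotypes (adjusted p = 0.00213 in CTRL and 0.000217 in YT-iKO). The difference of the responses was 0.16 (SE 0.447, edgeR adjusted p = 1.00). The YT-iKO call was lost without YT-iKO sham 1, 2 or 4 (edgeR adjusted p = 0.192, 0.201 and 0.114) or YT-iKO MCAo 1 (0.195), and in a fit of the YT-iKO groups alone (0.393). The CTRL difference passed without YT-iKO sham 1, 2 or 3 (0.0841, 0.0779 and 0.0583) or any of YT-iKO MCAo 1 to 4 (0.0909, 0.0778, 0.0815 and 0.0259), libraries of the other genotype that enter the same fit. Without the 2 libraries of highest background, edgeR called Serping1 in both genotypes, at 1.49 (adjusted p = 0.0274) in CTRL and 1.67 (adjusted p = 0.0245) in YT-iKO. With the even background taken off, the ratio of the MCAo to the sham mean was 3.11 in CTRL and 3.77 in YT-iKO.

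Cd55 encodes decay accelerating factor. It had 24 to 83 counts per library. Its levels were 1.85, 3.76, 1.87 and 1.82 CPM in CTRL sham and 5.73, 4.41, 2.58 and 3.34 CPM in CTRL MCAo. In YT-iKO they were 2.84, 1.80, 2.27 and 2.701 CPM after sham surgery and 3.06, 2.88, 2.14 and 2.37 CPM after MCAo. The groups overlapped in each comparison. The mean was 2.32 ± 0.958 CPM in CTRL sham and 4.01 ± 1.37 CPM in CTRL MCAo (log2 fold change 0.78, SE 0.347, edgeR adjusted p = 1.00), with CTRL sham 2 within the range of CTRL MCAo. In YT-iKO the corresponding means were 2.40 ± 0.472 and 2.61 ± 0.432 CPM (log2 fold change 0.12, SE 0.346, edgeR adjusted p = 1.00). After MCAo the YT-iKO value relative to CTRL was −0.62 on the log2 scale (SE 0.344, edgeR adjusted p = 1.00). No edgeR fit called Cd55, whose unadjusted p for MCAo in CTRL was 0.0349, while limma-voom with sample quality weights called it there, among 7538 genes (log2 fold change 0.73, adjusted p = 0.0632).

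Cd59a encodes CD59, the membrane inhibitor of the membrane attack complex, and had 567 to 2490 counts per library. Its levels were 62.3, 68.7, 81.9 and 65.0 CPM in CTRL sham and 79.5, 44.0, 48.4 and 62.2 CPM in CTRL MCAo. In YT-iKO they were 91.9, 71.4, 61.2 and 64.0 CPM after sham surgery and 125, 35.5, 64.8 and 108 CPM after MCAo. YT-iKO MCAo thus held the highest and the lowest library of all 16, and the groups overlapped in each comparison. The fitted log2 fold change was −0.25 (SE 0.290) after MCAo in CTRL and 0.21 (SE 0.289) in YT-iKO, and that of YT-iKO over CTRL was 0.06 (SE 0.289) after sham surgery and 0.51 (SE 0.290) after MCAo, with edgeR adjusted p from 0.993 to 1.00. Limma-voom with sample quality weights called Cd59a lower after MCAo in CTRL, also among 7538 genes (−0.53, adjusted p = 0.0471). Without the 2 libraries of highest background, which include the lowest value, the difference between genotypes after MCAo was 0.72 (SE 0.153, edgeR adjusted p = 0.0998).

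Cd93 was the most abundant member, with 5851 to 27785 counts per library. Its levels were 647, 642, 573 and 587 CPM in CTRL sham and 1098, 574, 469 and 924 CPM in CTRL MCAo. In YT-iKO they were 765, 563, 379 and 707 CPM after sham surgery and 1394, 574, 593 and 1568 CPM after MCAo. Both MCAo groups split into 2 high and 2 low libraries, replicates 1 and 4 being high in each, and the low libraries lay within or below the sham range. The means were 612 ± 37.8 and 766 ± 295 CPM in CTRL sham and MCAo and 603 ± 172 and 1032 ± 523 CPM in YT-iKO sham and MCAo (SD, n = 4). The log2 fold change after MCAo was 0.32 (SE 0.339) in CTRL and 0.77 (SE 0.341) in YT-iKO (edgeR adjusted p = 1.00 for each). The even background was 0.141 and 0.193 CPM per kb in the high CTRL MCAo libraries against 0.289 and 0.319 in the low ones, and 0.170 and 0.0413 in the high YT-iKO MCAo libraries against 0.412 and 0.360 in the low ones. The 8 endothelial markers, which do not include Cd93, summed to 16240 and 15050 CPM in the high CTRL MCAo libraries against 10160 and 9832 in the low ones, and to 12590 and 15380 CPM in the high YT-iKO MCAo libraries against 7976 and 10030 in the low ones. The part of either in the split of Cd93 was not tested. Scaled by genes of at least 10 CPM on average, the SD of YT-iKO MCAo was 254 CPM around a mean of 970, and edgeR called Cd93 higher after MCAo in YT-iKO (log2 fold change 0.65, SE 0.174, adjusted p = 0.0940). Without the 2 libraries of highest background that log2 fold change was 0.80 (edgeR adjusted p = 0.189), and with limma-voom and sample quality weights it was −0.058 (adjusted p = 0.832).

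**Figure D2:**
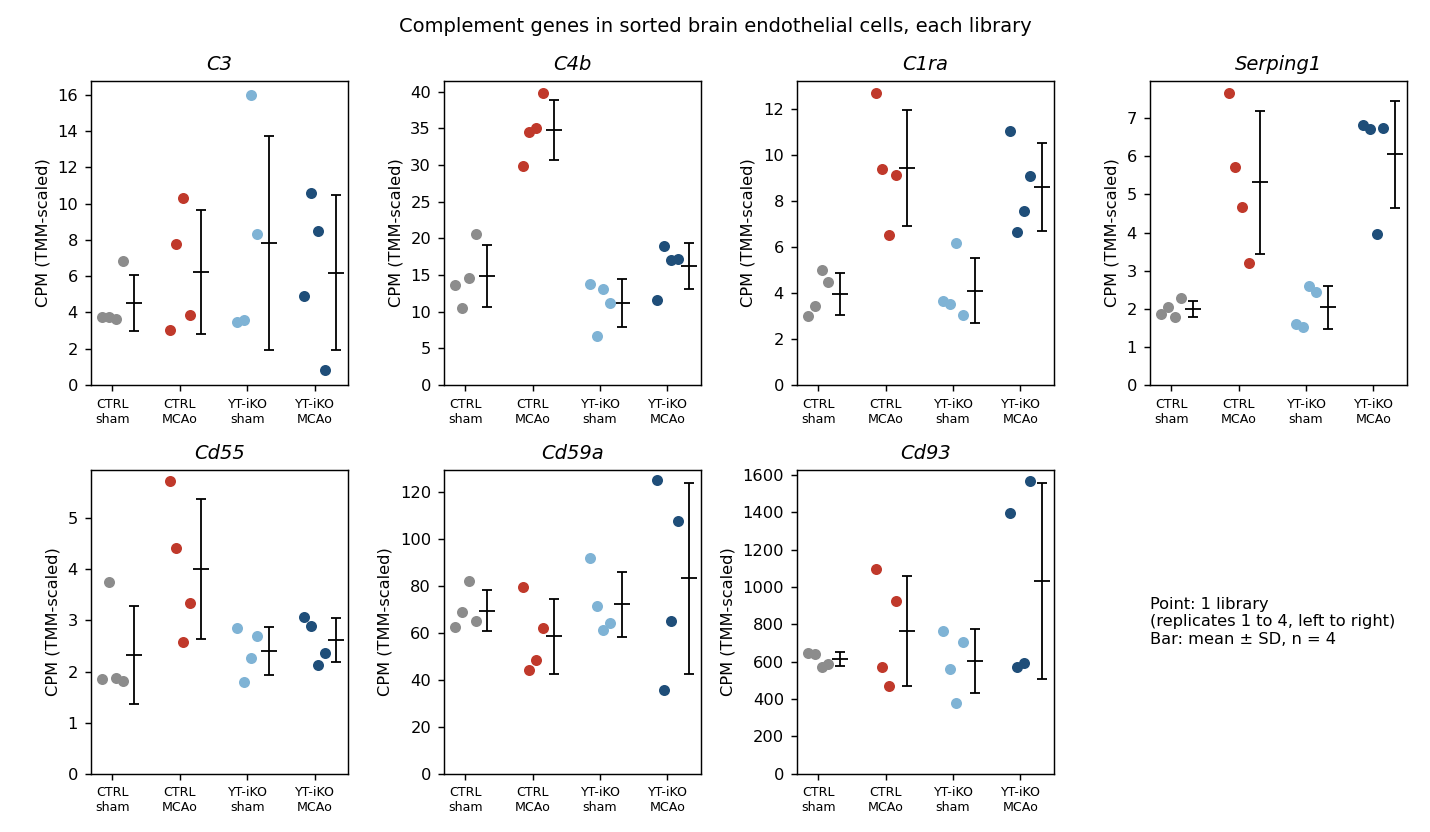
Level of the 7 genes (CPM, linear axes from 0) in each library by group, with the mean and SD of 4 libraries beside the points. C1ra and Serping1 are higher in every MCAo library than in every sham library of the same genotype, C4b only in CTRL, and C3 is highest in YT-iKO sham 3 at 16 CPM.

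Side by side, the comparison of surgery gave the calls. After MCAo in CTRL bECs, 2 of 7 members (C1ra and C4b) passed the threshold of adjusted p under 0.1, both higher, where 0.216% of the 31085 genes tested passed in either direction and 0.183% were higher. The median log2 fold change was 0.78 over the members and 0.07 over all genes tested. In YT-iKO bECs 1 of 7 members (Serping1) passed, higher, where 0.318% of all genes passed and 0.277% were higher, and the medians were 0.53 and −0.02. Groups that did not overlap, with MCAo higher, were seen for 3 members in CTRL (C1ra, C4b and Serping1), against 2.24% of all genes, and for 2 in YT-iKO (C1ra and Serping1), against 0.785%. None of the 7 members passed between genotypes after sham surgery, where 0.0965% of all genes did, and no member had an unadjusted p under 0.05. None passed between genotypes after MCAo, where 0.0708% of all genes did. There C4b alone had an unadjusted p under 0.05 and alone did not overlap between genotypes, being lower in YT-iKO, as did 0.415% of all genes. For the difference of the MCAo responses edgeR called 0 members and 0% of all genes, with 1 member (C4b) and 116 genes at an unadjusted p under 0.05, and DESeq2 also called 0 genes. The CTRL MCAo libraries enter both the CTRL response and the genotype comparison after MCAo, so these values for C4b are not independent.

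A change of scaling moved the median gene and the members to different extents. With TMM factors taken from genes of at least 10 CPM, the median log2 fold change over all genes shifted by 0.191 for genotype after sham, 0.142 for MCAo in CTRL and −0.139 for the difference of responses, and by 0.044 and −0.006 for genotype after MCAo and MCAo in YT-iKO. Relative to the median gene, C4b after MCAo in CTRL was 1.16 under either scaling, C1ra was 1.18 and 1.12, and Serping1 was 1.34 and 1.31. In YT-iKO, relative to the median gene, Serping1 was 1.59 and 1.51, C1ra 1.09 and 0.975, and Cd93 0.79 and 0.68.

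**Figure D3:**
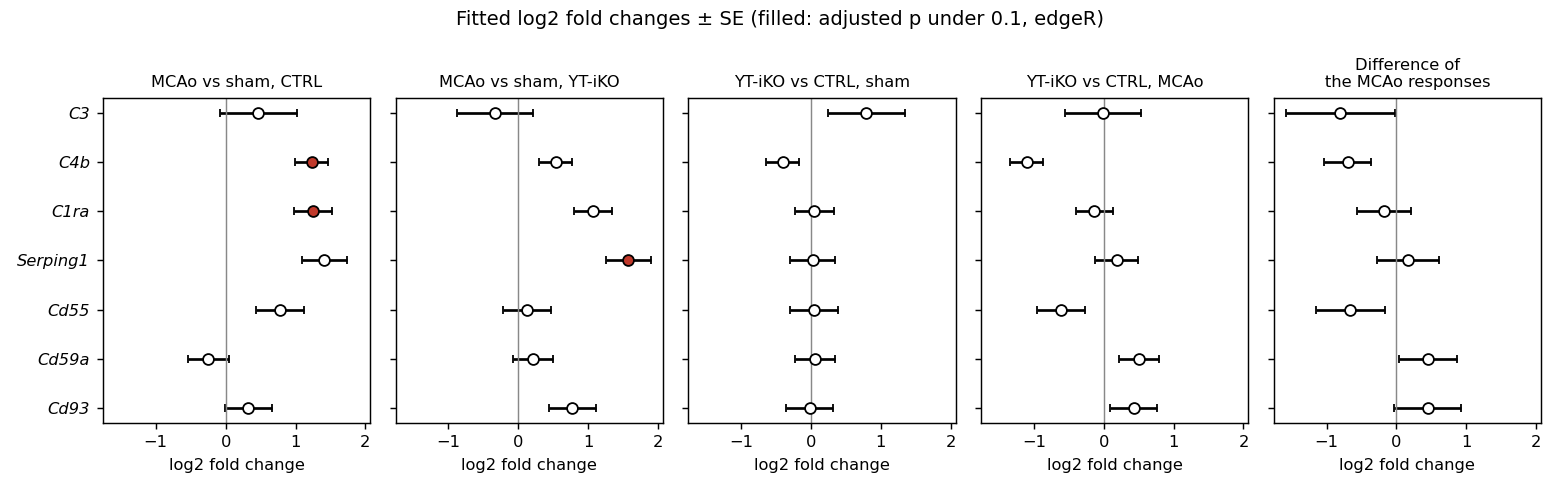
Fitted log2 fold change ± SE of the 7 genes in the 5 comparisons from 1 edgeR model over 16 libraries, filled where the adjusted p was under 0.1. C1ra and C4b after MCAo in CTRL (1.25 and 1.23) and Serping1 after MCAo in YT-iKO (1.58) are filled, and C4b in YT-iKO against CTRL after MCAo (−1.10) is not.

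C4, C1r and C1 inhibitor are also made by fibroblasts, astrocytes and other cells, and markers of 12 cell types were therefore read beside them. No marker of any list passed the edgeR test in any of the 4 pairwise comparisons, and no marker was at 0 in all libraries. DESeq2 called the fibroblast marker Dcn (decorin) higher after MCAo in both genotypes (log2 fold change 2.18, adjusted p = 0.00436 in CTRL and 2.09, adjusted p = 0.00759 in YT-iKO) and the astrocyte marker Gfap higher after MCAo in CTRL (1.15, adjusted p = 0.00789), and no marker between genotypes. The 5 fibroblast markers Col1a1, Col1a2, Dcn, Lum and Pdgfra summed to 16.9 to 19.1 CPM in CTRL sham and 26.1 to 31.5 CPM in CTRL MCAo, and in YT-iKO to 17.0 to 34.8 CPM after sham surgery and 26.1 to 34.02 CPM after MCAo. In CTRL this sum was higher in every MCAo library than in every sham library, as C1ra, Serping1 and C4b were. In YT-iKO the surgeries overlapped, with YT-iKO sham 3 above every MCAo library and the other sham libraries below them all. The 3 choroid plexus markers summed to 15.2 to 29.1 CPM in CTRL sham and to 72.8, 88.9, 78.2 and 15.6 CPM in CTRL MCAo 1 to 4. In YT-iKO they summed to 24.2, 14.3, 15.03 and 48.8 CPM after sham surgery and 110.6, 23.5, 14.6 and 16.8 CPM after MCAo. These markers were high in 3 of 4 CTRL MCAo libraries and 1 of 4 YT-iKO MCAo libraries, whereas C4b was also high in CTRL MCAo 4 and lowest of its group in YT-iKO MCAo 1. In YT-iKO sham 3 the fibroblast sum was 34.8 CPM, the highest of all 16 libraries, while Serping1 was 2.59 and C1ra 6.16 CPM, below every MCAo library of that genotype. This library also had the highest even background (0.421 CPM per kb), which was not taken off the marker sums. The fibroblast sum did not separate the genotypes after MCAo, where C4b did not overlap. The 6 astrocyte markers summed to 97.6 to 112 CPM (sham) and 90.8 to 113 CPM (MCAo) in CTRL and to 61.7 to 81.2 CPM (sham) and 70.3 to 113 CPM (MCAo) in YT-iKO. The 5 pericyte markers ranged from 423 to 1231 CPM. The 8 microglia and macrophage markers were highest in YT-iKO sham 3 (40.7 CPM) and YT-iKO MCAo 2 (37.5 CPM) and lowest in YT-iKO MCAo 4 (4.67 CPM), where C3 was 16, 10.6 and 0.810 CPM. These libraries also had the highest and lowest even background (0.421, 0.412 and 0.0413 CPM per kb). There the neuron markers summed to 20.6, 19.9 and 1.87 CPM and the lymphocyte markers to 10.2, 11.1 and 2.62 CPM. The oligodendrocyte markers differed, at 29.0, 23.25 and 24.4 CPM. In CTRL the microglia and macrophage sum reached 26.1 CPM in sham, in replicate 4, where C3 was also highest of its group. In CTRL MCAo the sum reached 28.2 CPM in replicate 2, where C3 was 7.78 CPM. C3 was highest of that group in replicate 3, at 10.3 CPM. The part of these cells and of the even background in the results was not tested.

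**Figure D4:**
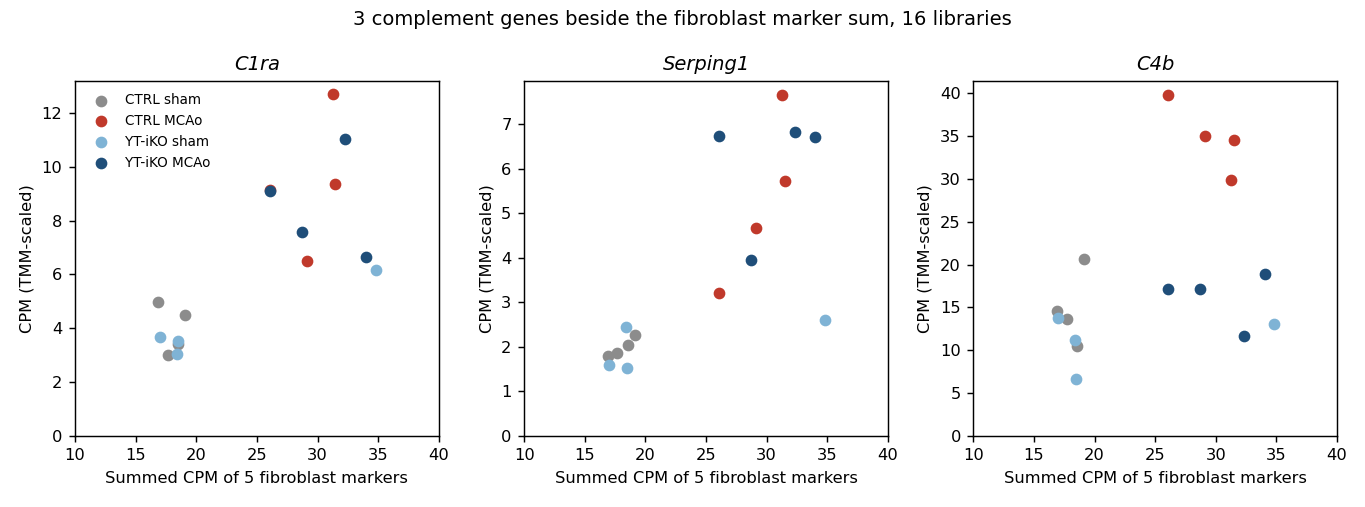
C1ra, Serping1 and C4b (CPM) against the summed CPM of 5 fibroblast markers in 16 libraries colored by group. Sham libraries cluster below 20 CPM of markers except YT-iKO sham 3 at 34.8, and the CTRL MCAo libraries alone are high in C4b.

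Reads can be shared between near-identical copies. Of the windows of 1 read length along the transcripts of C1ra, 35.7% occurred unchanged in a transcript of another gene, nearly all of them in C1rb (34.3%). A single read from such a window cannot be placed by its sequence alone. How such reads were counted is not given, so the size of their effect on C1ra values is unknown. For C4b the share of such windows was 14.98%, all with C4a, for Cd55 4.21%, mostly with Cd55b, and for Cd59a 0.22%, with Cd59b. C3, Serping1 and Cd93 shared none. C1rb itself had 1 to 62 counts per library and averaged 1.07 ± 0.477 and 1.08 ± 0.621 CPM in CTRL sham and MCAo and 1.75 ± 1.53 and 1.54 ± 1.33 CPM in YT-iKO sham and MCAo (SD, n = 4). C4a averaged 5.21 ± 0.975, 4.73 ± 1.75, 6.396 ± 1.59 and 6.25 ± 2.68 CPM in the same order, so that the groups in which C4b was high were not high in C4a. Cd55b had 1 to 29 and Cd59b 17 to 66 counts per library. Cd55 also shares 102 bases of exon with Gm16083 on the opposite strand, and reads from this stretch cannot be told apart without strand.

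The other complement genes comprised 49 genes in 8 classes, of which 48 passed the filter (Cfb, with 1 to 8 counts, did not). After MCAo in CTRL, 1 of the 48 passed, higher, and in YT-iKO 1 of 48 passed, higher. In neither comparison of genotype nor in the difference of responses did any pass the edgeR test. At an unadjusted p under 0.05 there were 5 after MCAo in CTRL, 4 after MCAo in YT-iKO, 2 between genotypes after sham, 1 between genotypes after MCAo and 0 for the difference, beside 1089, 937, 670, 464 and 116 of all 31085 genes. The median log2 fold change over these 48 genes was 0.24 after MCAo in CTRL and −0.08 in YT-iKO, beside 0.07 and −0.02 over all genes tested. The gene called in CTRL was Cfi, which encodes factor I, the serum protease that cleaves C3b and C4b. It averaged 1.39 ± 0.322 CPM in CTRL sham and 4.47 ± 1.34 CPM in CTRL MCAo (log2 fold change 1.69, SE 0.356, edgeR adjusted p = 0.0601). In YT-iKO its means were 1.49 ± 0.583 and 4.13 ± 0.665 CPM (log2 fold change 1.47, SE 0.351, edgeR adjusted p = 0.116), and in both genotypes the groups did not overlap. The gene called in YT-iKO was Cd248, a relative of Cd93 that is a known marker of pericytes and fibroblasts, with 6.86 ± 2.13 CPM in sham and 26.7 ± 13.95 CPM in MCAo (log2 fold change 1.96, SE 0.376, edgeR adjusted p = 0.0232), beside 10.45 ± 0.658 and 29.3 ± 15.6 CPM in CTRL (log2 fold change 1.49, SE 0.369, edgeR adjusted p = 0.162).

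High levels per length among the other complement genes were found in regulators and in relatives of Cd93. Thbd (thrombomodulin) averaged 70.6 CPM per kb over the 16 libraries, Vtn (vitronectin, which binds the terminal complex) 62.5, Clec14a (an endothelial C-type lectin) 33.3, Cr1l (Crry, a rodent membrane regulator) 12.4 and Clu (clusterin) 9.64. Clec14a was 152 ± 10.7 CPM in CTRL sham against 78.3 ± 17.0 CPM in YT-iKO sham, and 261 ± 102 against 118 ± 51.7 CPM after MCAo (log2 fold change between genotypes −0.95 and −1.14, edgeR adjusted p = 0.990 and 0.553). Some alternatives to this fit called Clec14a lower in YT-iKO after MCAo, among them DESeq2 and a block for replicate number. Other alternatives did not. The chains of C1q stayed low, with C1qa at 5 to 24, C1qb at 2 to 26 and C1qc at 3 to 37 counts per library. Of 7 receptors for complement fragments, 1 (Itgb2) exceeded 2 times the even background in all 16 libraries, as did 1 of 7 terminal pathway genes (C8g), 1 of 9 lectin pathway genes (Colec12) and 4 of 5 soluble regulators.

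**Figure D5:**
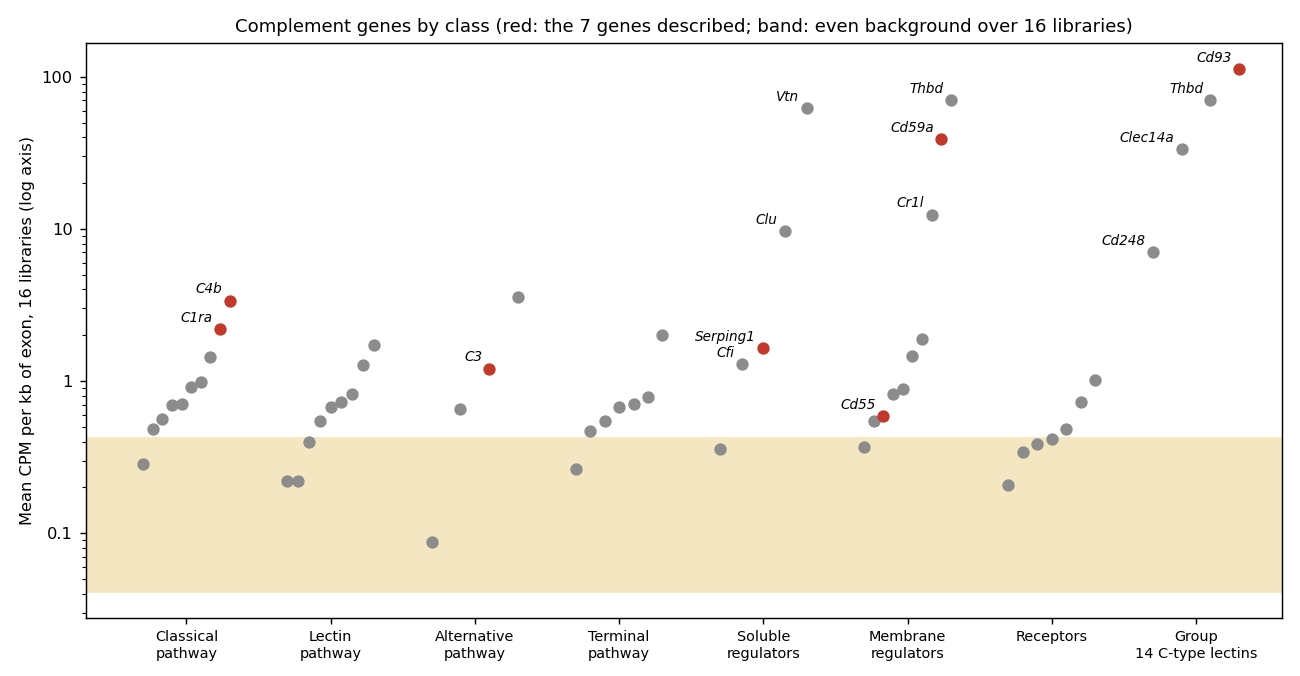
Mean CPM per kb of exon over 16 libraries (log axis) for the complement genes reported here by class, 1 point per gene and class, red for the 7 genes described here. The band is the range of the even background from 0.0413 to 0.421 CPM per kb. Cd93 and Thbd are the highest points, and lectin pathway and receptor genes lie close to the band.

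For each member the genes with the most similar profile over the 16 libraries were found among 9132 genes of at least 10 CPM on average. These correlations of log2(CPM + 1) are descriptions over libraries that share depth, background and group. C3 was most like Dnah1 (Pearson r = 0.985), Sspo (0.973) and Hmcn2 (0.972). C4b was most like Gramd1b (0.875), Arhgap20 (0.841) and Apod (0.819). C1ra was most like Adamts4 (0.939), Cd14 (0.939) and Cadm3 (0.936), and Serping1 was most like Disp2 (0.933) and Selp (0.913). Cd55 was nearest to Adgrg6 (0.823), Cd59a to Ucp2 (0.960) and Cd93 to Esyt1 (0.977) and Ephb4 (0.970).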

How the data were processed

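The deposited values were raw counts per gene in 16 libraries (SMART-Seq Ultra Low Input kit, paired reads). The authors mapped reads to GRCm38 with GENCODE M12 annotation using STAR 2.7.8a. The counting program and its strand setting are not given in the sources used here. All library columns were assigned. Positions and exon lengths came from GENCODE M21 (36861 of 37003 genes matched).

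The members and lists were chosen with earlier results of these data known. Counts were filtered (filterByExpr, minimum count 10), scaled by TMM and fitted in edgeR 4.0.16 (R 4.3.3) with 1 mean per group and quasi-likelihood tests, adjusted by Benjamini-Hochberg over 31085 genes with a threshold of 0.1. The procedure was tested on simulated data with planted changes larger than any fitted for the members. How often it finds changes of the members' size was not measured. Single members were compared by exact two-sided permutation (70 assignments). Alternatives included DESeq2 1.42.0 and limma 3.58.1. Named were all members, other complement genes called in any comparison, the 6 highest per length, copies of members, and the 3 most similar genes of each member. Of the genes this rule names, 2 are not reported here. Cfb, C1q chains, Dcn, Gfap, Itgb2, C8g and Colec12 were added after their values were seen. Libraries are pools of mice, and p-values measure the spread between these pools. Reads without molecular identifiers are not independent molecules.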

Additional observations from a re-analysis of the deposited data

Results flagged for a closer look

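In 28 groups of 4 libraries (7 genes in 4 groups), 3 held a library far from the other ones by Dixon's test at the 95% level. Chance alone marks about 1 in 20 such groups. C3 was 6.82 CPM in CTRL sham 4, above the other CTRL sham libraries. Serping1 was 3.95 CPM in YT-iKO MCAo 3, below the other YT-iKO MCAo libraries. Cd55 was 3.76 CPM in CTRL sham 2, above the other CTRL sham libraries.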

How the results depend on the processing

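No member's value called in the edgeR fit as reported changed sign under any alternative. C4b after MCAo in CTRL kept its call under all 10 alternatives to the whole fit (adjusted p up to 0.0440), Serping1 in YT-iKO under 9 of 10 and C1ra in CTRL under 9 of 10, the exception being the Xist covariate (adjusted p = 0.154). Among the 7 members, the even background made up the largest shares of the counts of Cd55, C3 and Serping1, at 43.9%, 22.8% and 19.99% at the median.

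The number of members called between genotypes after MCAo was 1 instead of 0 (C4b) with DESeq2, RLE factors, no filter, the replicate block, the Xist covariate and limma-voom (with sample quality weights), and 1 (Cd59a) without the 2 libraries of highest background, an alternative chosen after seeing the data. For MCAo in CTRL it was 3 instead of 2 (Serping1 added) with DESeq2, RLE factors, factors from abundant genes, no filter, the CPM filter, only the groups compared and without those 2 libraries, and it was 1 with the Xist covariate and at adjusted p under 0.05, and 6 with limma-voom (with C3, Cd55, Cd59a and Serping1 added, among 7538 of 31085 genes called). For MCAo in YT-iKO it was 2 instead of 1 with DESeq2 and without those 2 libraries (C1ra added) and with factors from abundant genes (Cd93 added), 3 with limma-voom and 0 with only the groups compared. Leaving out each library in turn gave 0 to 1 members for genotype after MCAo, 0 to 3 for MCAo in CTRL and 0 to 2 for MCAo in YT-iKO.

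Of the other complement genes, alternatives likewise chosen later called 1 (Clec14a) between genotypes after sham with factors from abundant genes, limma-voom and only the groups compared. After MCAo 1 (Clec14a) was called with DESeq2, factors from abundant genes, the replicate block, limma-voom and without the 2 libraries of highest background. For MCAo in CTRL the count of 1 became 3 with DESeq2, 4 with factors from abundant genes, 2 with the CPM filter, 2 with the block, 0 with the Xist covariate, 12 with limma-voom, 5 with only the groups compared, 5 without those 2 libraries and 0 at adjusted p under 0.05. For MCAo in YT-iKO the count of 1 became 3 with DESeq2, 2 with RLE factors, 2 with factors from abundant genes, 3 with the CPM filter, 2 with the block, 14 with limma-voom, 0 with only the groups compared and 3 without those 2 libraries. Leaving out single libraries gave 0 to 1 for genotype after MCAo, 0 to 3 for MCAo in CTRL and 0 to 2 for MCAo in YT-iKO.

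Signs that turned all belonged to values that passed no threshold in the edgeR fit as reported, though Cd93 after MCAo in YT-iKO passed with factors from abundant genes. On the log2 scale, with limma-voom these were, for genotype after sham, C1ra −0.10, Serping1 −0.082 and Cd93 0.074, for genotype after MCAo, C3 0.20 and Serping1 −0.17, for Cd93 after MCAo in CTRL −0.043, for MCAo in YT-iKO, C3 0.70, Cd55 −0.048, Cd59a −0.32 and Cd93 −0.058, and for the difference of responses, Serping1 −0.087 and Cd93 −0.014. With factors from abundant genes Cd93 was 0.11 for genotype after sham, C3 0.082 for genotype after MCAo and Serping1 −0.025 for the difference. C3 for genotype after MCAo was 0.0015 with the Xist covariate, 0.040 with only the groups compared and 0.036 with the replicate block. Cd93 for genotype after sham was 0.0015 with the CPM filter and 0.0087 with only the groups compared. Without the 2 libraries of highest background C1ra was −0.23, Serping1 −0.11 and Cd93 0.15 for genotype after sham, C3 0.013 for MCAo in YT-iKO and C1ra 0.17 for the difference. With a pseudocount of 0.25 the difference of means for Serping1 after sham was −0.00044.

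Leaving out single libraries moved genotype after sham from −0.21 to 0.17 for C1ra, from −0.11 to 0.14 for Serping1, from −0.051 to 0.37 for Cd55, from −0.065 to 0.15 for Cd59a and from −0.13 to 0.16 for Cd93. It moved C3 from −0.42 to 0.32 for genotype after MCAo and from −0.71 to 0.26 for MCAo in YT-iKO, Cd55 from −0.034 to 0.20 and Cd59a from −0.15 to 0.43 for MCAo in YT-iKO, and the difference of responses from −0.40 to 0.048 for C1ra and from −0.011 to 0.32 for Serping1. The causes of these changes were not tested.

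Replicate numbers were not read as pairs. Same-numbered libraries correlated at a median r of 0.259 with 17 of 24 over 0.1, against −0.128 for 72 other combinations, and 9 of 16 libraries correlated best with their own number. With the replicate block edgeR called 119 genes instead of 67 for MCAo in CTRL and 132 instead of 99 for MCAo in YT-iKO, and of the members' calls it changed that of C4b between genotypes after MCAo (log2 fold change −1.10, adjusted p = 0.0652). Over the alternatives to the whole fit, the number of all genes called ranged from 27 to 143 for genotype after sham, 19 to 257 for genotype after MCAo, 50 to 7538 for MCAo in CTRL and 17 to 5626 for MCAo in YT-iKO, all 4 upper ends with limma-voom.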
